A study of Mus musculus with 9 samples.

Results

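The transferrin receptor gene Tfrc and 6 further genes of iron handling, Fth1, Ftl1, Slc11a2, Slc25a37, Ireb2 and Aco1, were followed across activated CD8 T cells of 3 transnuclear clones, R7-I, R7-II and also R7-III. They were picked by symbol for their role in iron uptake, storage and regulation. All 7 were found among the 24060 genes of the table, and all 7 were among the 11330 genes that passed the filter of a maximum value above 1. The cells came from transnuclear mice on a Rag2-proficient BALB/c background. Each line was derived by transfer of the nucleus of 1 CD8 T cell that recognizes the ROP7 peptide of Toxoplasma gondii, so a line stands for 1 T cell receptor and not for a class of receptors. By the study's measurements R7-II has the lowest affinity for the peptide. R7-I is above R7-III when measured with purified protein. When measured on cells the affinities of both are similar, but R7-I adhered in a larger share of contacts than R7-III. Splenocytes of all 3 lines were cultured overnight in 10 ng/ml IL-2 and 10 µM ROP7 peptide, and live CD3+ CD8+ cells that bound the H-2Ld-Rop7 tetramer were sorted for RNA. There were 3 libraries per clone and 9 in all. The age of the mice was not given, and unstimulated cells were not analysed here. The labels call the libraries of a clone biological replicates without saying whether each came from its own animal, so the p-values measure only the spread between these libraries.

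Cells take up iron mainly as iron-loaded transferrin, which the transferrin receptor carries into endosomes. DMT1, the product of Slc11a2, moves the released iron into the cytosol, mitoferrin-1, the product of Slc25a37, moves it into mitochondria, and ferritin, built from the heavy chain of Fth1 and the light chain of Ftl1, stores the rest. Activated T cells need iron to divide, and the transferrin receptor, CD71, is a long-used marker of their activation. The iron regulatory proteins IRP1 (Aco1) and IRP2 (Ireb2) sense cellular iron: when iron is scarce they bind hairpins called iron-responsive elements, which protects Tfrc mRNA from decay when the hairpins lie in the 3′ UTR and blocks translation of ferritin mRNA when the hairpin lies in the 5′ UTR. RNA levels therefore report on the first of these controls and not on the second.

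The hairpin letters were searched in the members' transcripts because they are what ties uptake and storage genes to the same pair of regulators. The search took a C, any 5 bases, the loop CAGTGN and 5 further bases of the same strand, with at least 4 of 5 bases able to pair across the loop, in GENCODE M21 transcripts of GRCm38, the build also called mm10. Of the 7 members 4 held a match. Each is printed 5′ to 3′ with 6 bases on either side, and the capitals mark the unpaired C and the 6 bases of the loop.
Tfrc 3′ UTR, chr16:32631219-32631247, plus strand: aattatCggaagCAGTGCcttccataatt
Tfrc 3′ UTR, chr16:32631598-32631626, plus strand: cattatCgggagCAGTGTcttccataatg
Tfrc 3′ UTR, chr16:32631663-32631691, plus strand: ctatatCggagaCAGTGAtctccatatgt
Tfrc 3′ UTR, chr16:32631710-32631738, plus strand: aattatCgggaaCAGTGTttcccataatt
Fth1 5′ UTR, chr19:9982732-9982760, plus strand: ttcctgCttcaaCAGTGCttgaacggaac
Ftl1 5′ UTR, chr7:45459779-45459807, minus strand: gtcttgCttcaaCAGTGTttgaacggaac
Slc11a2 3′ UTR, chr15:100395153-100395181, minus strand: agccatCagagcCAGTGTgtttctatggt

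The 4 Tfrc matches began 892, 1271, 1336 and 1383 bases after the end of the coding sequence. Those of Fth1 and Ftl1 lay 132 and 170 bases before the coding start. The Slc11a2 match had 4 of 5 stem pairs, against 5 in the others, and lay 41 bases after the coding end. It was found in 1 of 6 protein-coding transcripts. Each Tfrc match was found in 1 of 3, that of Fth1 in 4 of 5 and that of Ftl1 in 1 of 2. For these 4 genes a value per gene cannot separate transcripts with the element from those without it. Slc25a37, Ireb2 and Aco1 held no match to these letters. In the longest protein-coding transcript of 21877 genes, a match was present in the 5′ UTR of 0.613%, in the 3′ UTR of 3.71% and at least 2 times in the 3′ UTR of 0.16%. A match describes letters only. In the same annotation Tfrc spans chr16:32608920-32632794, Fth1 chr19:9980598-9985098, Ireb2 chr9:54863789-54912530 and Aco1 chr4:40143081-40198338 on the plus strand, and Ftl1 chr7:45457944-45459884, Slc11a2 chr15:100387898-100425072 and Slc25a37 chr14:69241848-69285112 on the minus strand.

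**Figure D1:**
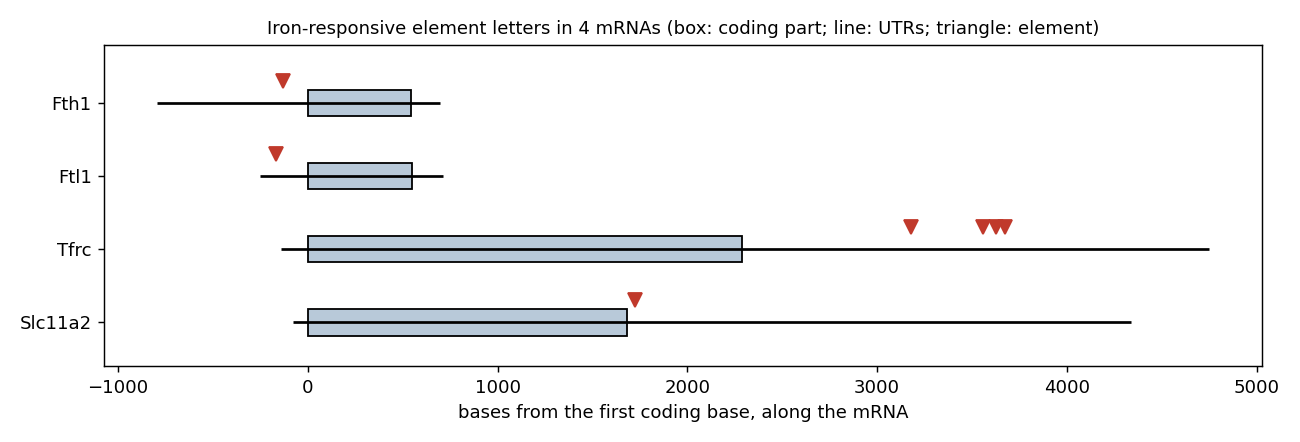
Position of each match to the iron-responsive element letters along the transcripts of Tfrc, Fth1, Ftl1 and Slc11a2, in bases from the first coding base, with the coding part as a box, the UTRs as lines and each match as a triangle, to scale. The 4 matches of Tfrc lie in its 3′ UTR, the single matches of Fth1 and Ftl1 in their 5′ UTRs and that of Slc11a2 just after its coding sequence.

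Levels are given in TPM, transcripts per 1000000, which is corrected for transcript length and scaled to an equal sum per library. The deposited TPM values keep no read depth, so no counting error can be given. Differences are log2 fold changes of TPM + 1, which understate the change of genes with low values, and were tested with limma over all 9 libraries with Benjamini-Hochberg adjustment over 11330 genes and a threshold of 0.01. R7-II differed from the other clones across much of the transcriptome: 56.1% of all genes tested passed between R7-II and R7-I and 53.6% between R7-II and R7-III, against 8.41% between R7-III and R7-I. The median log2 fold change over all genes was 0.17, 0.12 and 0.04 in these comparisons, and about 0 after each library was divided by a median-of-ratios factor, the median over genes of its ratio to the geometric mean library. Values under this second scaling are given where they changed a call or a direction of a member.

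The sorted cells carried the marker RNA of CD8 T cells. The R7-II libraries held more of it, and also more marker RNA of some other cells. The summed level of 10 CD8 T cell markers, of which Lck, a T cell receptor kinase, was the most abundant, was 2565 to 2631 TPM in R7-I, 3512 to 3606 TPM in R7-II and 2655 to 2786 TPM in R7-III. The sum of 14 myeloid markers, led by the lysozyme gene Lyz2, was 5.70 to 6.66 TPM in R7-I, 27.9 to 92.8 TPM in R7-II and 6.33 to 8.63 TPM in R7-III, and of the 12 tested 8 exceeded R7-I and 9 exceeded R7-III in the R7-II libraries. All 7 B cell markers tested of 8, led by Cd79b, were higher in R7-II than in either other clone, with sums of 8.14 to 15.2, 34.2 to 71.2 and 4.92 to 7.40 TPM in R7-I, R7-II and R7-III. So were all 7 MHC class II genes, led by Cd74, with sums of 33.0 to 50.4, 114.8 to 185.9 and 25.0 to 29.2 TPM. The sum of 10 erythroid markers, mostly the globin genes Hba-a2 and Hba-a1, was 23.9 to 75.2 TPM in R7-I, 4.33 to 18.2 TPM in R7-II and 10.9 to 27.6 TPM in R7-III. Of the 6 erythroid markers tested, 1 was higher and 0 were lower in each comparison of R7-II. Markers of CD4 T cells, led by Cd40lg, summed to 8.01 TPM or less and those of NK cells to 0.17 TPM or less, with Klra8 and Klra4 at 0 in all 9 libraries. In bulk RNA, a change in the cells present and a change of RNA within a cell cannot be told apart, and the part of these other cells in the differences described next was not tested.

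The 7 members spanned storage genes among the most abundant of the cell and transporters near the middle of the range. By mean TPM over the 9 libraries Ftl1 ranked 144, Fth1 262 and Tfrc 329 of the 11330 genes, whereas Ireb2 ranked 3819, Aco1 4998, Slc25a37 5102 and Slc11a2 5332. Ftl1 exceeded Fth1 1.79-fold on average and in 9 of 9 libraries. Fth1 exceeded Tfrc 1.17-fold, again within each of the 9 libraries although their ranges overlapped, and Tfrc exceeded Ireb2 10.0-fold. Aco1, Slc25a37 and Slc11a2 were neighbours whose ranges overlapped, at ratios of 1.03 and 1.08. Across all 9 libraries the coefficient of variation was 6.13% for Slc11a2, 6.15% for Aco1, 6.67% for Ireb2, 7.12% for Slc25a37, 7.57% for Tfrc and 9.58% for Fth1, beside a median of 9.10% over the 5963 genes with a mean of at least 20 TPM. Ftl1 stood apart from the other members at 22.3%.

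**Figure D2:**
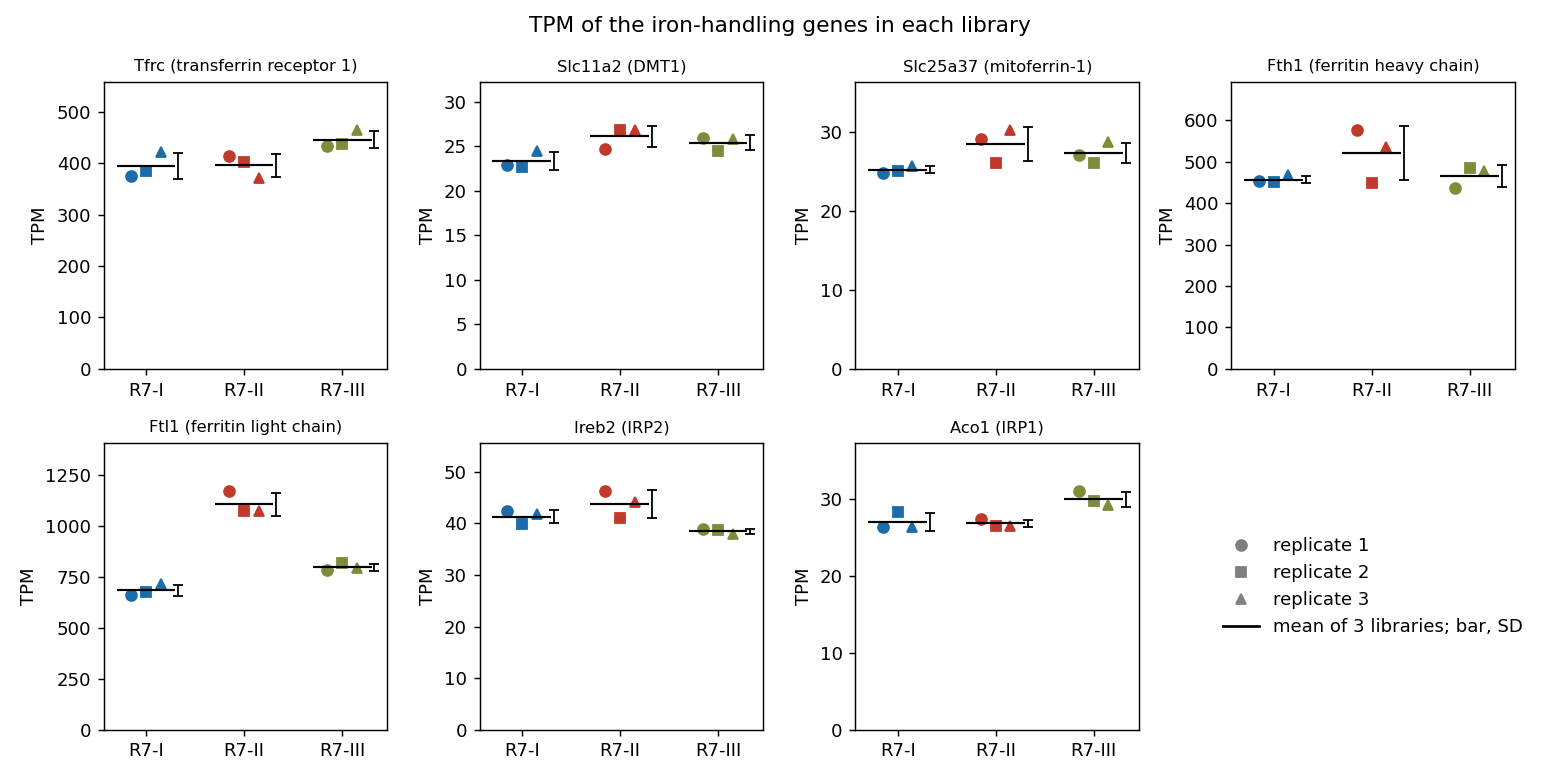
TPM of each of the 7 members in the 9 libraries, with 1 point per library and a line at the mean and a bar of 1 SD on either side for each clone. Ftl1 is the member whose 3 clones do not overlap, with R7-I lowest and R7-II highest.

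Tfrc, the entry point of transferrin iron, was about as abundant in R7-II as in R7-I. Its level was 375.3, 385.3 and 422.8 TPM in R7-I libraries, 414.8, 401.4 and 371.9 TPM in R7-II and 433.8, 437.7 and 464.4 TPM in R7-III. The libraries of R7-I and R7-II overlapped, and those of R7-III lay above both. Libraries were separate in this way for 70.6% of all genes tested between R7-II and R7-III and for 41.9% between R7-III and R7-I. The means were 394.4 ± 25.03, 396.0 ± 21.9 and 445.3 ± 16.6 TPM (SD, n = 3 libraries each). R7-II relative to R7-I gave a log2 fold change of 0.0062 with a 95% interval of -0.11 to 0.12 (adjusted p = 0.921, limma). Against R7-III it was -0.17 with an interval of -0.28 to -0.056 (adjusted p = 0.0136, limma), and that of R7-III against R7-I was 0.18 with an interval of 0.062 to 0.29 (adjusted p = 0.0379, limma), so no comparison of Tfrc passed the threshold on the TPM scale with all 9 libraries. R7-II against R7-III passed without R7-I replicate 3 (-0.17, adjusted p = 0.00658, limma) and without R7-II replicate 1 (-0.20, adjusted p = 0.00921, limma).

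The scaling mattered for Tfrc. With median-of-ratios scaling Tfrc was lower in R7-II than R7-I, at a log2 fold change of -0.18 (adjusted p = 0.00735, limma) and lower than in R7-III by -0.30 (adjusted p = 3.34e-04, limma), while R7-III against R7-I gave 0.12 (adjusted p = 0.103, limma). A gene with an equal share of all transcripts in both clones thus fell below the typical gene of R7-II, since the typical gene was higher there on the TPM scale. Myc, a transcription factor known to raise Tfrc transcription, was at 648.3 ± 12.4, 545.5 ± 25.9 and 598.4 ± 11.3 TPM in R7-I, R7-II and R7-III (SD, n = 3 libraries each), and was lower in R7-II, at log2 fold changes of -0.25 against R7-I (adjusted p = 8.84e-05, limma) and -0.13 against R7-III (adjusted p = 0.00542, limma). The second call was lost in 9 of 19 alternatives, with values as near 0 as -0.037 under quantile normalization (adjusted p = 0.446, limma), and among them without R7-II replicate 1 or 2 or R7-III replicate 1 or 2 (adjusted p = 0.0169 to 0.0251, limma). The 5 genes whose pattern over the 9 libraries was closest to that of Tfrc, by the root mean square difference of log2(TPM + 1) around each gene's own mean, were Atpaf2 (0.0334), Mast2 (0.0366), Tssc4 (0.0394), Prkcsh (0.0402) and Mta1 (0.0415), against a median of 0.200 over 11329 genes.

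For the transporters downstream of the receptor no comparison passed the threshold. Slc11a2, which encodes the endosomal transporter DMT1, was at 22.9, 22.7 and 24.5 TPM in R7-I libraries, 24.8, 26.8 and 26.8 TPM in R7-II and 26.0, 24.5 and 25.9 TPM in R7-III. Each R7-II and each R7-III library was above the R7-I libraries. Between R7-II and R7-I, 71.2% of all genes tested had libraries that did not overlap. The log2 fold change was 0.16 for R7-II against R7-I (interval 0.041 to 0.27, adjusted p = 0.0205, limma) and 0.04 against R7-III (interval -0.078 to 0.15, adjusted p = 0.542, limma), and with median-of-ratios scaling these became -0.024 and -0.092. Without R7-II replicate 1 the first passed, at 0.19 (adjusted p = 0.00868, limma).

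Slc25a37, which encodes mitoferrin-1, behaved much like Slc11a2. It was at 24.9, 25.1 and 25.8 TPM in R7-I libraries, 29.2, 26.1 and 30.3 TPM in R7-II and 27.2, 26.2 and 28.8 TPM in R7-III. Again the R7-I libraries lay below all others, beside the same shares of all genes tested, and R7-II and R7-III overlapped. Its log2 fold change was 0.17 for R7-II against R7-I (interval 0.034 to 0.30, adjusted p = 0.0289, limma) and 0.06 against R7-III (interval -0.076 to 0.19, adjusted p = 0.428, limma), or -0.015 and -0.074 with median-of-ratios scaling. R7-II replicate 2 decided the first: without it the value was 0.23 (adjusted p = 0.00318, limma). That library had the lowest Slc25a37, Fth1 and Ireb2 of the clone but its highest Slc11a2, and Tfrc, Ftl1 and Aco1 were not lowest there. It also had the lowest B cell and myeloid sums of the clone, 34.2 and 27.9 TPM, against 71.2 and 48.2 TPM in replicate 1 and 54.4 and 92.8 TPM in replicate 3. Closest to Slc25a37 in pattern were Vps13a (0.0403), Znf512b (0.0407) and Fam175a (0.0411), against a median of 0.173.

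Slc25a28 encodes mitoferrin-2, the mitoferrin used outside the erythroid lineage. Its level was 26.3 ± 0.728, 24.4 ± 1.44 and 27.4 ± 0.945 TPM in R7-I, R7-II and R7-III (SD, n = 3 libraries each), with log2 fold changes of R7-II of -0.10 and -0.16 (adjusted p = 0.102 and 0.0205, limma). With median-of-ratios scaling they were -0.28 and -0.29 and passed the threshold (adjusted p = 0.00162 and 0.00156, limma). The ratio of Slc25a37 to Slc25a28 within a library does not depend on how libraries are scaled. It was 0.918 to 0.992 in R7-I, 1.06 to 1.27 in R7-II and 0.955 to 1.06 in R7-III, so that R7-II lay above R7-I and met the highest R7-III library within the rounding of the values. Ratios between genes were described and not tested.

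Ftl1, the ferritin light chain, was the member with the greatest difference between clones. It was at 659.0, 676.3 and 713.3 TPM in R7-I libraries, 1171, 1073 and 1072 TPM in R7-II and 781.7, 815.7 and 792.0 TPM in R7-III. The 3 clones did not overlap: every R7-III library was above every R7-I library, and every R7-II library was above both. Of the 7 members Ftl1 alone was set apart in R7-II from both other clones, a pattern shown by 59.1% of all genes tested. The means were 682.9 ± 27.8, 1105 ± 56.6 and 796.5 ± 17.4 TPM (SD, n = 3 libraries each), so R7-II was 1.62-fold above R7-I and 1.39-fold above R7-III.

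Those differences of Ftl1 were larger than the spread between libraries. R7-II had a log2 fold change of 0.69 ± 0.040 (SE) against R7-I (interval 0.605 to 0.78, adjusted p = 2.27e-07, limma) and 0.47 ± 0.040 against R7-III (interval 0.38 to 0.56, adjusted p = 3.05e-06, limma). Median-of-ratios scaling gave 0.51 and 0.34 (adjusted p = 1.30e-06 and 1.92e-05, limma). R7-III was above R7-I by 0.22 (interval 0.13 to 0.31, adjusted p = 0.00379, limma), or 0.17 with median-of-ratios scaling (adjusted p = 0.00932, limma). This smaller difference kept its direction but missed the threshold when replicate 1 or 2 of R7-I was left out (adjusted p = 0.0211 and 0.0173, limma) and likewise for replicate 1, 2 or 3 of R7-III (adjusted p = 0.0117, 0.0203 and 0.0139, limma).

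Fth1, the ferritin heavy chain that oxidizes iron for storage, was less clear. It was at 452.4, 450.7 and 467.6 TPM in R7-I libraries, 576.3, 449.4 and 535.5 TPM in R7-II and 436.3, 484.4 and 477.2 TPM in R7-III. Replicates 1 and 3 of R7-II were the highest of all 9 libraries and its replicate 2 fell among those of the other clones, so no pair of clones was separate. Its log2 fold change was 0.18 for R7-II against R7-I (interval 0.013 to 0.35, adjusted p = 0.0540, limma), 0.15 against R7-III (interval -0.014 to 0.32, adjusted p = 0.0954, limma) and 0.03 for R7-III against R7-I (interval -0.14 to 0.19, adjusted p = 0.850, limma). Replicate 2 of R7-II decided the call: without it the values were 0.28 and 0.25 (adjusted p = 5.73e-04 and 0.00113, limma). With all libraries and median-of-ratios scaling they were -0.0079 and 0.019, and R7-III against R7-I was -0.027.

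**Figure D3:**
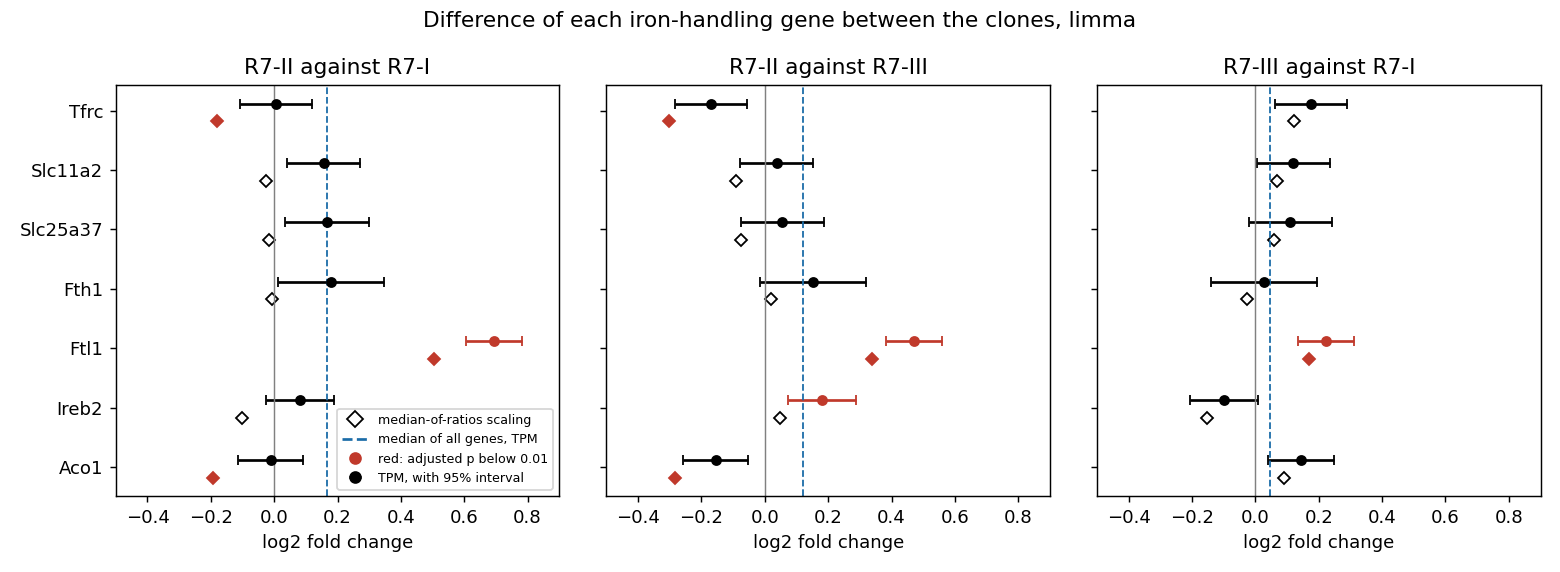
Log2 fold change of each member in the 3 comparisons, as a circle with its 95% interval for TPM and a diamond for median-of-ratios scaling, in red where the adjusted p was below 0.01, beside the median over all genes tested (dashed). Ftl1 lies above 0 in all comparisons under both scalings. With median-of-ratios scaling Tfrc, Aco1, Slc11a2 and Slc25a37 lie below 0 in both comparisons of R7-II, in red for Tfrc and Aco1. Aco1 lies below 0 in both on the TPM scale too.

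The RNA ratio of the ferritin chains differed between the clones. Fth1 TPM divided by Ftl1 TPM was 0.656 to 0.687 in R7-I, 0.419 to 0.499 in R7-II and 0.558 to 0.603 in R7-III, and the 3 clones did not overlap. R7-II had the most light chain RNA per heavy chain RNA and R7-I the least. The replicate with low Fth1, R7-II replicate 2, had the lowest ratio, since its Ftl1 was no lower than in replicate 3. Tfrc against Fth1, the balance of uptake and heavy chain, was 0.769 on average in R7-II, 0.863 in R7-I and 0.957 in R7-III, with R7-II below R7-III and overlapping R7-I. For Tfrc against Ftl1, a ratio added after the values were seen, all R7-II libraries were lower, at 0.347 to 0.374 against 0.570 to 0.593 in R7-I and 0.537 to 0.586 in R7-III. Both ferritin genes have processed pseudogenes of near-identical sequence in the genome, so their levels depend on how the reads were shared out and are uncertain to that extent. Myeloid cells are rich in ferritin, and the myeloid sum in the R7-II libraries was 48.2, 27.9 and 92.8 TPM beside Ftl1 levels of 1171, 1073 and 1072 TPM; the part of such cells in the Ftl1 difference was not tested.

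**Figure D4:**
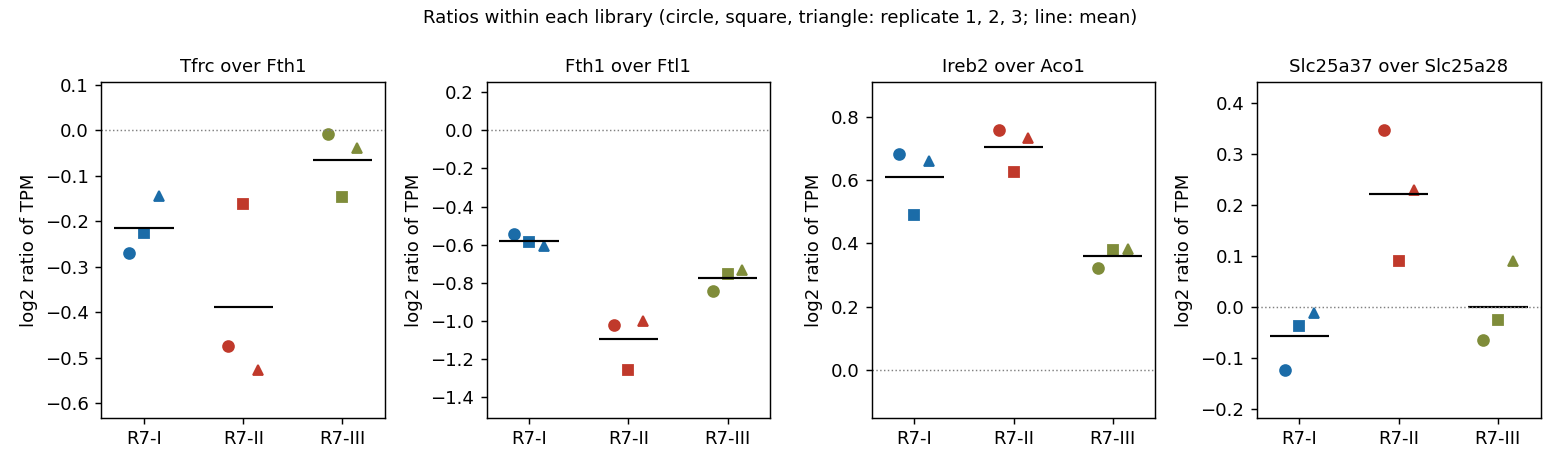
Ratio of TPM values of pairs of iron genes within each library on a log2 axis, with 1 point per library and a line at the mean of each clone. Fth1 over Ftl1 is separate in all 3 clones, and Ireb2 over Aco1 is lowest in R7-III.

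Of the RNAs for the iron regulatory proteins, the R7-III libraries held the lowest Ireb2 and the highest Aco1 of the 9. Ireb2, encoding IRP2, was at 42.3, 39.9 and 41.8 TPM in R7-I libraries, 46.3, 41.0 and 44.1 TPM in R7-II and 38.9, 38.6 and 38.0 TPM in R7-III. The ranges of R7-I and R7-II overlapped, and that of R7-III lay below both. In either direction, R7-III was separate from R7-II for 70.6% of all genes tested, and from R7-I for 41.9%. R7-II exceeded R7-III by 0.18 on the log2 scale (interval 0.073 to 0.29, adjusted p = 0.00710, limma). The call was lost in 11 of 19 alternatives, among them median-of-ratios scaling (0.049, adjusted p = 0.294, limma), a fit of only the 6 libraries compared (adjusted p = 0.0155, limma), and fits without R7-I replicate 1 or 3, R7-II replicate 1 or 3, or any replicate of R7-III (adjusted p = 0.0107 to 0.0247, limma). R7-II against R7-I gave 0.08 (interval -0.026 to 0.19, adjusted p = 0.156, limma), or -0.10 with median-of-ratios scaling, and R7-III against R7-I gave -0.10 (adjusted p = 0.189, limma).

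Aco1, encoding IRP1, which serves as a cytosolic aconitase when it holds an iron-sulfur cluster, was at 26.4, 28.4 and 26.4 TPM in R7-I libraries, 27.4, 26.6 and 26.5 TPM in R7-II and 31.1, 29.7 and 29.2 TPM in R7-III. Here the range of R7-III lay above both. Its libraries were apart from R7-II for 70.6% and from R7-I for 41.9% of all genes tested, in either direction. The log2 fold change was -0.01 for R7-II against R7-I (interval -0.11 to 0.092, adjusted p = 0.840, limma), -0.15 for R7-II against R7-III (interval -0.26 to -0.052, adjusted p = 0.0128, limma) and 0.14 for R7-III against R7-I (adjusted p = 0.0553, limma), none past the threshold. With median-of-ratios scaling Aco1 was lower in R7-II by -0.19 against R7-I and -0.28 against R7-III (adjusted p = 0.00398 and 3.69e-04, limma). Ireb2 exceeded Aco1 in 9 of 9 libraries, by 1.41 to 1.61 in R7-I, 1.54 to 1.69 in R7-II and 1.25 to 1.30 in R7-III, and the ratio was lower in all R7-III libraries than in the other 6.

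Counted together on the TPM scale, 1 of 7 members passed between R7-II and R7-I, Ftl1, where 40.6% of all genes tested were higher and 15.5% lower. Between R7-II and R7-III it was 2 of 7, Ftl1 and Ireb2, both higher, where 35.6% of all genes were higher and 18.0% lower. R7-III and R7-I were parted by 1 of 7, Ftl1, where 6.96% of all genes were higher and 1.45% lower. The median absolute log2 fold change of the members was 0.16, 0.15 and 0.12 in the 3 comparisons, beside 0.28, 0.27 and 0.10 over all genes. With median-of-ratios scaling 3 of 7 passed in each comparison of R7-II, with Ftl1 higher and Tfrc and Aco1 lower, beside 54.7% and 53.3% of all genes, where 25.2% and 25.0% of all genes were higher and 29.4% and 28.2% lower. For R7-III against R7-I, Ftl1 was then again the 1 of 7 that passed, beside 8.59% of all genes, 4.86% higher and 3.72% lower.

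Of 79 other iron genes listed, 64 were measured above the filter, and they moved in both directions in R7-II. Between R7-II and R7-I 18 were higher and 10 lower, 43.8% of those tested beside 56.1% of all genes. Between R7-II and R7-III 20 were higher and 10 lower, 46.9% beside 53.6%, and between R7-III and R7-I 1 was higher and 1 lower, Cdc14a and Alad, 3.12% beside 8.41%. The split turned with the scaling: with median of ratios 13 were higher and 25 lower in both comparisons of R7-II, 59.4% beside 54.7% and 53.3% of all genes. The 15 genes not tested included Slc40a1, which encodes ferroportin, the iron exporter, at 0.24 TPM or less in every library, and Tfr2, Hfe and Hamp, genes of liver iron sensing.

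**Figure D5:**
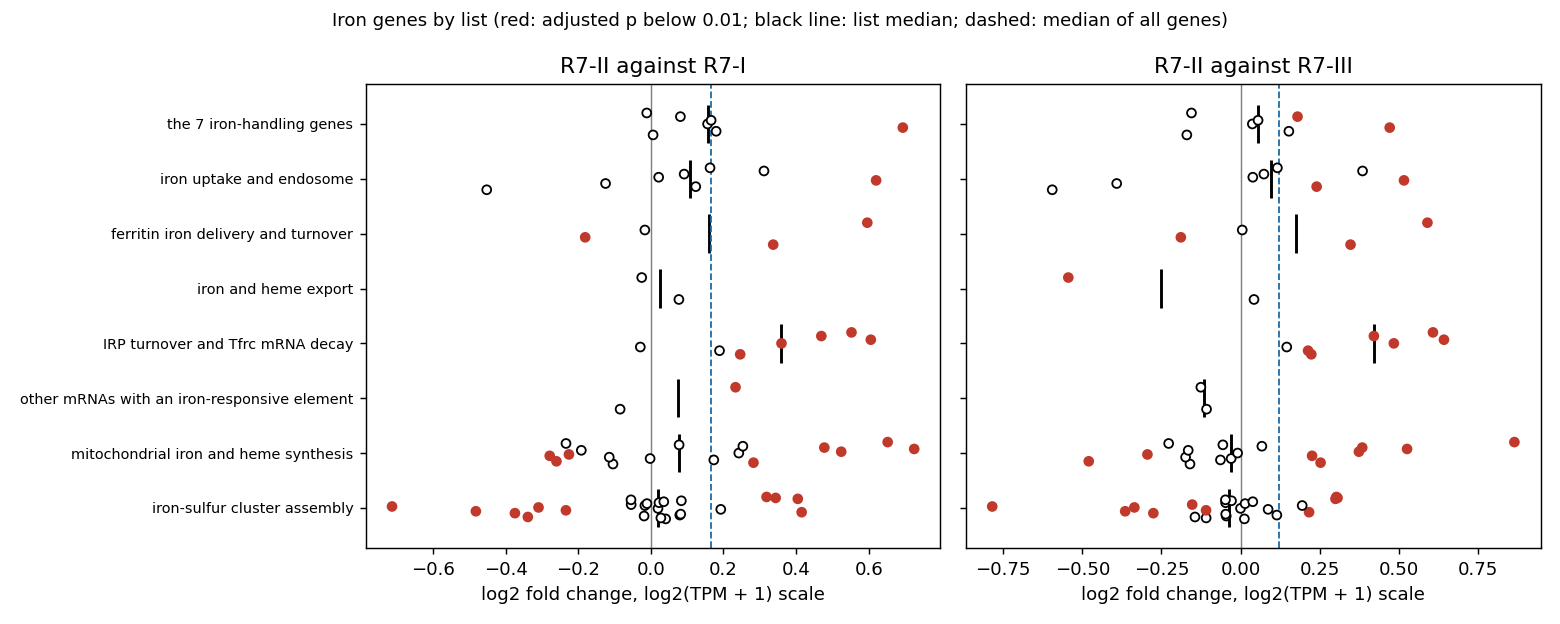
Log2 fold change of every tested gene in the 7 members and each list of other iron genes, for R7-II against R7-I and against R7-III on the TPM scale, with 1 point per gene, red where the adjusted p was below 0.01, a line at the list median and a dashed line at the median of all genes. The list of factors that turn over IRP2 or Tfrc mRNA, and their relatives, has higher calls in R7-II and no lower ones, and the iron-sulfur cluster list has both.

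The list of factors that turn over IRP2 or Tfrc mRNA also held relatives of such factors, and decay of Tfrc mRNA was not measured. On the TPM scale 5 of 7 tested were higher in R7-II than R7-I and 6 than R7-III, with none lower. Of all genes 40.6% and 35.6% were higher. The median log2 fold changes of the 7 were 0.36 and 0.42, beside 0.17 and 0.12 over all genes. With median-of-ratios scaling 3 were higher and 1, Rc3h1, lower than in R7-I, and 4 higher than in R7-III, beside 25.2% and 25.0% of all genes higher. Zfp36, encoding tristetraprolin, which binds AU-rich elements and promotes decay of many mRNAs including Tfrc, was at 65.3 ± 1.77, 100.1 ± 7.71 and 63.6 ± 0.847 TPM in R7-I, R7-II and R7-III (SD, n = 3 libraries each), with log2 fold changes of 0.61 and 0.64 (adjusted p = 2.85e-06 and 1.85e-06, limma). Its relatives Zfp36l2 (0.55 and 0.61) and Zfp36l1 (0.47 and 0.42) also rose. Fbxl5, the iron-sensing ubiquitin ligase subunit that removes IRP2, was higher by 0.25 and 0.22 (adjusted p = 0.00107 and 0.00206, limma), calls that median-of-ratios scaling lost. Zc3h12a encodes Regnase-1, an endonuclease that can cleave Tfrc mRNA. It was at 22.5 ± 0.933, 25.8 ± 0.754 and 22.1 ± 1.25 TPM (SD, n = 3 libraries each). Its values in R7-II were 0.19 against R7-I (adjusted p = 0.0102, limma) and 0.21 against R7-III (adjusted p = 0.00546, limma). Quantile normalization turned the first to -0.053. The second was lost in 7 of 19 alternatives, among them median-of-ratios scaling (0.085, adjusted p = 0.132, limma) and fits without R7-II replicate 1 or 3 or R7-III replicate 1 or 2. Rc3h1, encoding Roquin-1, gave -0.03 and 0.15 (adjusted p = 0.672 and 0.0450, limma) on the TPM scale, and -0.21 against R7-I with median-of-ratios scaling (adjusted p = 0.00226, limma).

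Genes that load or empty ferritin moved in both directions. Ncoa4, the receptor that carries ferritin to lysosomes to free its iron, was at 44.7 ± 1.15, 56.7 ± 2.89 and 44.3 ± 0.646 TPM in R7-I, R7-II and R7-III (SD, n = 3 libraries each) and was higher in R7-II by 0.34 and 0.35 (adjusted p = 5.32e-05 and 4.51e-05, limma). Herc2, a ubiquitin ligase that degrades NCOA4 when iron is plentiful, was higher by 0.60 and 0.59. Pcbp1, the chaperone that delivers iron to ferritin, was lower by -0.18 and -0.19 (adjusted p = 5.45e-05 and 4.28e-05, limma), with means of 668.5, 589.7 and 672.1 TPM. In all, 2 of 4 genes tested rose and 1 fell in each comparison of R7-II, 75.0% called beside 56.1% and 53.6% of all genes, and with median-of-ratios scaling 2 rose and 2 fell.

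In the uptake list, 1 of 8 genes tested rose in R7-II against R7-I and 2 rose against R7-III, so that 12.5% and 25.0% were called beside 56.1% and 53.6% of all genes. With median-of-ratios scaling 1 rose and 1 fell in each. Mcoln1, a channel that releases iron from late endosomes and lysosomes, was at 19.2 ± 0.916, 30.1 ± 2.46 and 20.7 ± 1.68 TPM in R7-I, R7-II and R7-III (SD, n = 3 libraries each), with log2 fold changes of 0.62 and 0.52 (adjusted p = 2.94e-05 and 1.15e-04, limma). Steap3, the endosomal ferrireductase of erythroid precursors, was near the filter of 1 TPM, at 0.820 ± 0.405, 0.310 ± 0.0819 and 0.990 ± 0.282 TPM, with values of -0.45 and -0.59 (adjusted p = 0.0443 and 0.0133, limma). All R7-II libraries, at 0.22 to 0.38 TPM, were below those of R7-I, at 0.41 TPM or more, and of R7-III, at 0.67 TPM or more. Of all genes tested 59.1% had R7-II set apart from both other clones. Over 18 alternatives the Steap3 calls were gained in 3 and 6, with values down to -1.08 and -1.40 (lowest adjusted p = 0.00473 and 0.00358, limma). Of 2 export genes tested, 0 passed in R7-II against R7-I and 1 was lower against R7-III. Of all genes, 56.1% and 53.6% passed, and 18.0% were lower in the second comparison. The gene was the heme exporter Abcg2, given here after its values were seen. It was at 2.28, 2.24 and 3.70 TPM in R7-I, R7-II and R7-III. Its log2 fold changes in R7-II were -0.025 against R7-I (adjusted p = 0.856, limma) and -0.54 against R7-III (adjusted p = 0.0018, limma). Cdc14a, a phosphatase gene that, like Tfrc, holds the hairpin letters in its 3′ UTR, was at 6.45, 7.76 and 8.56 TPM and rose in R7-II (0.23, adjusted p = 0.00848, limma) and in R7-III (0.36, adjusted p = 0.00397, limma) against R7-I, while R7-II against R7-III gave -0.13 (adjusted p = 0.111, limma). Quantile normalization turned the first of these to -0.10, and median-of-ratios scaling gave 0.068 for it, not past the threshold, and -0.24 for R7-II against R7-III (adjusted p = 0.00629, limma). The call for R7-II against R7-I was held in 6 of 19 alternatives, and that for R7-III was lost in 8 of 19, among them those without any 1 replicate of R7-I or R7-III (adjusted p up to 0.0354, limma).

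Of 17 mitochondrial iron and heme genes tested, 5 rose and 3 fell in R7-II against R7-I and 6 rose and 2 fell against R7-III, 47.1% called in each beside 56.1% and 53.6% of all genes. The counts became 4 and 7, and 3 and 7, with median-of-ratios scaling. Ppox (0.73 and 0.53) and Fech (0.48 and 0.38), the last enzymes of heme synthesis, were higher in R7-II. Ppox was at 12.9, 22.0 and 15.0 TPM in R7-I, R7-II and R7-III, and Fech at 7.16, 10.3 and 7.72 TPM. The Fech call against R7-III was lost in 4 of 19 alternatives, the median-of-ratios scaling (0.26, adjusted p = 0.0165, limma), quantile normalization, and fits without R7-II replicate 1 or R7-III replicate 2. Blvrb, a biliverdin reductase abundant in erythroid cells, was higher by 0.65 and 0.87 at means of 0.967, 2.07 and 0.687 TPM, and its call against R7-I was lost without R7-I replicate 1 (0.51, adjusted p = 0.0104, limma) and with quantile normalization. Alad, an early heme enzyme, was at 30.9 ± 2.01, 25.3 ± 0.910 and 21.4 ± 0.485 TPM (SD, n = 3 libraries each) and was the 1 gene of this list that fell in R7-III against R7-I (-0.50, adjusted p = 2.17e-04, limma). Hmox1, which frees iron from heme, gave 0.25 and 0.07 in R7-II (adjusted p = 0.0311 and 0.536, limma), both below 0 after quantile normalization (-0.052 and -0.12).

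Across 24 genes of iron-sulfur cluster assembly, 4 rose and 6 fell in each comparison of R7-II, 41.7% called beside 56.1% and 53.6% of all genes, with 15.5% and 18.0% of all genes lower. With median-of-ratios scaling 3 rose in each, and 13 and 12 fell, beside 29.4% and 28.2% of all genes lower. Nfu1, a late-acting carrier of clusters, was at 53.9 ± 5.82, 32.4 ± 1.25 and 56.5 ± 1.25 TPM in R7-I, R7-II and R7-III (SD, n = 3 libraries each), with log2 fold changes of -0.71 and -0.78 (adjusted p = 5.40e-06 and 2.79e-06, limma). Glrx5, the glutaredoxin that passes clusters on, was at 200.0, 143.0 and 184.2 TPM and was lower by -0.48 and -0.36 (adjusted p = 6.71e-06 and 5.18e-05, limma). Bola3, a partner of NFU1, was lower by -0.31 and -0.34 at means of 128.2, 103.4 and 130.6 TPM (adjusted p = 5.09e-05 and 3.01e-05, limma). The 4 that rose on the TPM scale, given here after their values were seen, were Fdxr (0.42 and 0.22), Mms19 (0.40 and 0.30), Narfl (0.34 and 0.31) and Ndor1 (0.32 and 0.30).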

How the data were processed

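RNA of sorted, peptide-activated CD8 T cells was sequenced in 9 libraries. The authors aligned reads to RefSeq genes of mm10, estimated expression with RSEM 1.2.11 and deposited TPM per gene; their DESeq2 1.8.1 test ran on counts that were not used here. Which aligner RSEM used was not given in these sources. TPM keeps no depth, and 13738 to 14434 genes were above 0 in a library. Each of the 9 value columns was matched to a sample by name. From TPM, log2(TPM + 1) was computed and fitted with limma 3.58.1 in R 4.3.3 (lmFit, eBayes with trend) for 11330 genes whose highest TPM exceeded 1, with an adjusted p threshold of 0.01. The fit was tested on simulated data. Libraries of a clone correlated at r = 0.992 to 0.997 across genes, and no pair was identical.

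The members, the gene lists and the tests were chosen with earlier results of these data known. Named genes were the 7 members, 8 iron genes fixed by name (Steap3, Slc40a1, Ncoa4, Fbxl5, Zc3h12a, Rc3h1, Slc25a28, Hmox1), Myc, up to 3 genes per iron list with the largest change shared by both comparisons of R7-II, the gene per list with the largest change between R7-III and R7-I, the nearest patterns to Tfrc and Slc25a37, and the most abundant gene of each marker list. Flvcr1 and Flvcr2 were matched under the older symbols Mfsd7b and Mfsd7c. Hairpin letters were searched with Python 3.11.15 in GENCODE M21 transcripts of GRCm38. The alternatives were another pseudocount (0.1 or 5), filter, scaling, moderation or threshold, a fit of the 6 libraries compared, a block for the replicate number, and fits without each library in turn.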

Additional observations from a re-analysis of the deposited data

How the results depend on the processing

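Ftl1 was higher in R7-II than in either other clone under all 19 alternatives, with log2 fold changes of 0.51 to 0.75 against R7-I and 0.34 to 0.54 against R7-III, all past the threshold with limma. Its smaller difference between R7-III and R7-I kept its direction, and its adjusted p lay between 0.00124 and 0.0211. The number of members past the threshold was 1 between R7-II and R7-I, and became 3 with median-of-ratios scaling, 2 with quantile normalization, 3 at a threshold of 0.05, and 1 to 3 with libraries left out (2 without R7-II replicate 1, 3 without R7-II replicate 2). Between R7-II and R7-III it was 2. It became 3 with median-of-ratios scaling, 1 without the trend, 4 at 0.05 and 1 in the fit of 6 libraries. With libraries left out it was 1 to 3. The count was 1 without R7-I replicate 1, R7-II replicate 3 or any replicate of R7-III, and 3 without R7-II replicate 2. Between R7-III and R7-I it was 1, and became 0 without the filter, 0 without the trend, 2 at 0.05 and 0 to 1 with libraries left out (0 without R7-I replicate 1 or 2 or any replicate of R7-III). Counts of other iron genes past the threshold stayed at 25 to 38 from 28 and at 24 to 40 from 30 in the comparisons of R7-II, or 25 to 29 and 24 to 31 with libraries left out. Between R7-III and R7-I they went from 2 to 1 without the filter, 4 with median-of-ratios scaling, 10 at 0.05, 4 in the fit of 6 libraries and 1 to 3 with libraries left out.

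Small differences turned with the scaling of the libraries. Median-of-ratios scaling gave, for R7-II against R7-I, -0.18 for Tfrc, -0.0079 for Fth1, -0.024 for Slc11a2, -0.015 for Slc25a37 and -0.10 for Ireb2. For R7-II against R7-III it gave -0.092 for Slc11a2, -0.074 for Slc25a37 and -0.056 for Hmox1, and for R7-III against R7-I -0.027 for Fth1. Quantile normalization gave, for R7-II against R7-I, -0.084 for Slc11a2, -0.064 for Slc25a37, -0.11 for Ireb2, -0.053 for Zc3h12a, -0.052 for Hmox1 and -0.10 for Cdc14a, and for R7-II against R7-III -0.14 for Slc11a2, -0.11 for Slc25a37, -0.031 for Rc3h1 and -0.12 for Hmox1. With libraries left out, values near 0 changed sign: R7-II against R7-I lay between -0.029 and 0.057 for Tfrc, -0.029 and 0.022 for Aco1 and -0.079 and 0.016 for Rc3h1, and R7-III against R7-I between -0.0017 and 0.074 for Fth1. Of 1269 fold changes of genes under the alternatives, 1129 kept their direction and their side of the threshold, 74 lost the call, 40 gained it and 26 changed sign.

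No pairing of libraries by replicate number was evident: of 9 pairs with the same number, 0 had deviations correlated above 0.1 (-0.045 to 0.089). Pairs with different numbers gave -0.095 to 0.065. With 3 libraries per clone such correlations cannot exclude a pairing. With the replicate number as a block, members past the threshold for R7-III against R7-I went from 1 to 0, since Ftl1 had an adjusted p of 0.0120 (limma), and Myc against R7-III and Cdc14a against R7-I were also lost in R7-II. Depth is unknown from TPM, so the precision of low values such as those of Steap3 is unknown.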
